A study of Mus musculus with 9 samples.

Results

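Glycolysis, the pentose phosphate pathway and lactate transport were examined through 33 genes: the glucose transporter Slc2a1, the glycolytic enzymes and the bifunctional enzymes that set their rate, both lactate dehydrogenases, 2 lactate transporters and the pentose phosphate enzymes. Members were taken by gene symbol from the array annotation, each as its single-gene probe set of highest mean over all arrays. Such a probe set was found for 29 of the 33, among 18194 genes in all, and Gpi1, Pfkfb1, Eno1 and G6pdx were not analysed here. The 9 samples were total RNA of the mouse line 3T3-L1, fibroblasts that become fat cells under a hormone mix, and each had its own single-colour oligonucleotide array, with 3 arrays in each of 3 groups. One group was mature adipocytes transfected with an siRNA that targets PPAR gamma, the master nuclear receptor of fat cell formation; the second was mature adipocytes that received a non-targeting siRNA (control siRNA adipocytes); the third was preadipocytes.

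Both adipocyte groups had been induced with 0.5 mM IBMX (an inhibitor of phosphodiesterases), 10 µg/ml insulin and 1 µM dexamethasone, and were detached and electroporated with 2 or 3 nmol of siRNA 14 days after induction. The labels do not say which array had which amount, and no electroporation is described for preadipocytes, so differentiation and the procedure cannot be told apart in comparisons with preadipocytes. How long after transfection the cells were harvested is not stated in the labels. Replicates are called technical in the series' design, so p-values cover only the spread between these samples. All samples come from 1 cell line.

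Glycolysis splits glucose to pyruvate in the cytosol, and lactate dehydrogenase turns pyruvate into lactate, which leaves through proton-coupled transporters. The pentose phosphate pathway branches off after the first step; its oxidative branch makes NADPH, the reductant of fatty acid synthesis, and its non-oxidative branch makes ribose and returns sugars to glycolysis. In fat cells these routes supply glycerol backbones, acetyl units and NADPH for fat synthesis, and many glycolytic genes are known targets of the hypoxia-inducible factors, which bind the core motif ACGTG.

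The siRNA target itself was measured at 9.54, 9.58 and 9.64 in PPAR gamma siRNA adipocytes, 12.89, 12.82 and 12.65 in control siRNA adipocytes and 8.35, 8.20 and 8.12 in preadipocytes (log2 signal, Pparg). Its level was thus below the control siRNA arrays and above the preadipocyte arrays on every array with PPAR gamma siRNA. Array medians lay between 4.82 and 4.89, and correlations between arrays over probe sets were 0.994 to 0.998 within groups. Of the fixed marker lists, 6 of 7 adipocyte markers were called higher in the control siRNA adipocytes than in preadipocytes and 6 of 7 lower under PPAR gamma siRNA than with control siRNA, and 5 of 5 preadipocyte markers were called lower and 4 of 5 higher in the same comparisons. Pparg, the siRNA target, is among these adipocyte markers and in their summed level, so its fall given above is counted there again. The summed level of the adipocyte markers was 13.96 to 14.08 with PPAR gamma siRNA, 16.04 to 16.05 with control siRNA and 9.42 to 9.73 in preadipocytes (log2), and all 4 proliferation markers were called lower in the control siRNA adipocytes than in preadipocytes. Of those 4, 1 was called higher with PPAR gamma siRNA than with control siRNA (median 0.44), and 4 were without the first PPAR gamma siRNA array (median 0.76); their part in the members' changes was not tested. The Actb 3′ minus 5′ difference, a sign of RNA quality, was 0.79 ± 0.40 with PPAR gamma siRNA, 1.04 ± 0.22 with control siRNA and 0.30 ± 0.06 in preadipocytes (log2, SD, n = 3 each). The same difference for Gapdh was -0.02 ± 0.07, -0.02 ± 0.12 and -0.12 ± 0.09 in the same order of groups. It lay between -0.19 and 0.11 on all 9 arrays and did not show the group difference seen with Actb. The 3′ and 5′ probe sets of Gapdh reached 14.19 and 14.24, close to the highest value on any array, 14.59. A difference in RNA quality could be hard to see at such levels. With the Actb difference as a covariate, 20 members were called higher and 2 lower for control siRNA against preadipocytes. There the calls of Slc2a1 and Eno2 were lost and Pfkfb2 was gained. For PPAR gamma siRNA against control siRNA the counts were 4 and 17, with Tkt lost and Tpi1 and Pfkfb2 gained. Counts without the covariate are given below. In the Actb difference every preadipocyte array lay below every control siRNA array. In that comparison the covariate therefore cannot separate RNA quality from group. Shares over all genes with this covariate are not given here.

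The upstream sequences of 5 members are shown because their change in differentiation passed the test and because 1 window of each held the hypoxia core ACGTG at least 2 times, counted on both strands. They are the 250 bases before the RefSeq transcription start in build GRCm38.p6, read 5′ to 3′ on the gene's strand, with each ACGTG, or its reverse complement CACGT, in capitals. Capitals of 6 letters mark CACGTG, the E-box bound by MYC, ChREBP and USF factors, which holds the core on both strands and so counts 2 times. The windows are Hk2 (chr6:82774455-82774704, minus strand), Pfkfb3 at 1 of its 2 starts (chr2:11502091-11502340, minus strand), Pgk1 (chrX:106186850-106187099, plus strand), Ldha at 1 of its 2 starts (chr7:46845554-46845803, plus strand) and Slc16a1 (chr3:104638414-104638663, plus strand).
Hk2: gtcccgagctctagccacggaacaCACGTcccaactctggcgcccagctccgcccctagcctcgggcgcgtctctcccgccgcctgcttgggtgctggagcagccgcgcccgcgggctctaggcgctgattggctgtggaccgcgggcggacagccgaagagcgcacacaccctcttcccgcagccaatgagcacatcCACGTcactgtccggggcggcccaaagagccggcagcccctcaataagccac
Pfkfb3: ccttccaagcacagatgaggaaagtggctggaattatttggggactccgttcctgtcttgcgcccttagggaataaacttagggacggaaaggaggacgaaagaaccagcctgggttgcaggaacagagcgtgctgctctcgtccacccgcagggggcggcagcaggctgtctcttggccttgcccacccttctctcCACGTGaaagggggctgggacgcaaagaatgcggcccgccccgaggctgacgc
Pgk1: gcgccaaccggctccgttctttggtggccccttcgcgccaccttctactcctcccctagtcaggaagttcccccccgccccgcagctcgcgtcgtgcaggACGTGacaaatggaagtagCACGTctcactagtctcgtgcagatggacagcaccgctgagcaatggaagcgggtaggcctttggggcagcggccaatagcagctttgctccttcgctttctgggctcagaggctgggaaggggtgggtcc
Ldha: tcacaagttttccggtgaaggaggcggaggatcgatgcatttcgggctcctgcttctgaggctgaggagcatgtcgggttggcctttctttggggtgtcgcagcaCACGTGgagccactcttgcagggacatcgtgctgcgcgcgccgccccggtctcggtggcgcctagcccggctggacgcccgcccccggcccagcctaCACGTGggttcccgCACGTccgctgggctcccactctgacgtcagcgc
Slc16a1: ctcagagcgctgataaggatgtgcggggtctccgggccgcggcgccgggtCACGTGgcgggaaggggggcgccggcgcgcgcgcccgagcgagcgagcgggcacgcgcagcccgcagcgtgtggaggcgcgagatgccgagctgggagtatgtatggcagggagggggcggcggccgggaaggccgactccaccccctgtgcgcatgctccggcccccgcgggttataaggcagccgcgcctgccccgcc
The Ldha window holds 3 separate sites, those of Hk2 and Pgk1 hold 2, and those of Pfkfb3 and Slc16a1 hold 1, a palindromic E-box. Pfkm, Pfkfb2 and Slc16a3 also had a window that held ACGTG 2 times by the same count. These members were not called in differentiation, so their windows are not shown, and repeated cores were not particular to called members.

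Among all 29 members, 12 had ACGTG in at least 1 window (41.4%), against 18.5% of 27025 genes in the RefSeq table with windows of the same length. Per window the shares were 38.1% of 42 member windows and 16.6% of 32851 windows. CACGTG was found for 5 members (17.2%, against 6.86% of all genes). The GC box GGGCGG, the motif of SP1-type factors and like all of these searched on both strands, was found for 20 members (69.0%, against 35.4%). The direct repeat of PPAR and RXR was searched as the half-site AGGTCA, any 1 base and AGGTCA again. It was found for no member and for 0.0407% of all genes, which says only that these letters are not in the members' bases. Of the 20 members called higher in differentiation, 9 held ACGTG (Slc2a1, Hk2, Pfkfb3, Aldoa, Pgk1, Pgam1, Pkm, Ldha and Slc16a1), as did none of the 3 called lower and 3 of the 6 not called (Pfkm, Pfkfb2 and Slc16a3). A match is a description of the letters and not a site of binding. The shares over all genes cover the whole RefSeq table, not only genes on the array. They were not matched to the members for base composition or for the number of windows per gene. The motif of SP1-type factors also had a higher share among members, so these values do not single out the hypoxia core. Whether its share exceeds that of windows of like composition was not tested.

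Most of the sugar-burning genes were higher in adipocytes than in preadipocytes. Control siRNA adipocytes had 20 members called higher than preadipocytes, 3 called lower and 6 not called, by limma's moderated test at a Benjamini-Hochberg adjusted p under 0.05 over 45050 probe sets. Over all genes 27.1% were called higher and 24.7% lower, 51.8% in all. The arrays of these groups did not overlap in 22 members upward and 3 downward, beside 34.0% and 27.5% of all genes. At least 2-fold changes were called in 14 members upward and 2 downward, against 8.83% and 10.6% of all genes. The median log2 difference of the 29 members was 0.92, beside 0.09 for all genes. In whole-culture RNA, fewer cells of a type and less RNA per cell cannot be told apart.

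With PPAR gamma siRNA the balance lay the other way and the differences were smaller. PPAR gamma siRNA adipocytes had 4 members called higher than control siRNA adipocytes, 16 called lower and 9 not called, beside 19.9% of all genes called higher and 16.1% lower, 35.9% in all. The arrays did not overlap in 5 members upward and 18 downward, beside 23.4% and 21.0% of all genes. At least 2-fold changes were called in 2 members upward and 3 downward (5.68% and 4.61% of all genes). The median log2 difference was -0.31, beside -0.01 for all genes. Set against preadipocytes, PPAR gamma siRNA adipocytes had 18 members called higher, 1 called lower and 10 not called, beside 19.6% and 16.9% of all genes (36.5% in all), with a median of 0.71 beside 0.07. There 20 members upward and 1 downward had arrays that did not overlap (28.8% and 21.1% of all genes), and 10 upward and 1 downward were called at 2-fold or more (4.29% and 5.01%). The 3 comparisons share arrays, so their values are given side by side and not as independent support for each other.

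**Figure D1:**
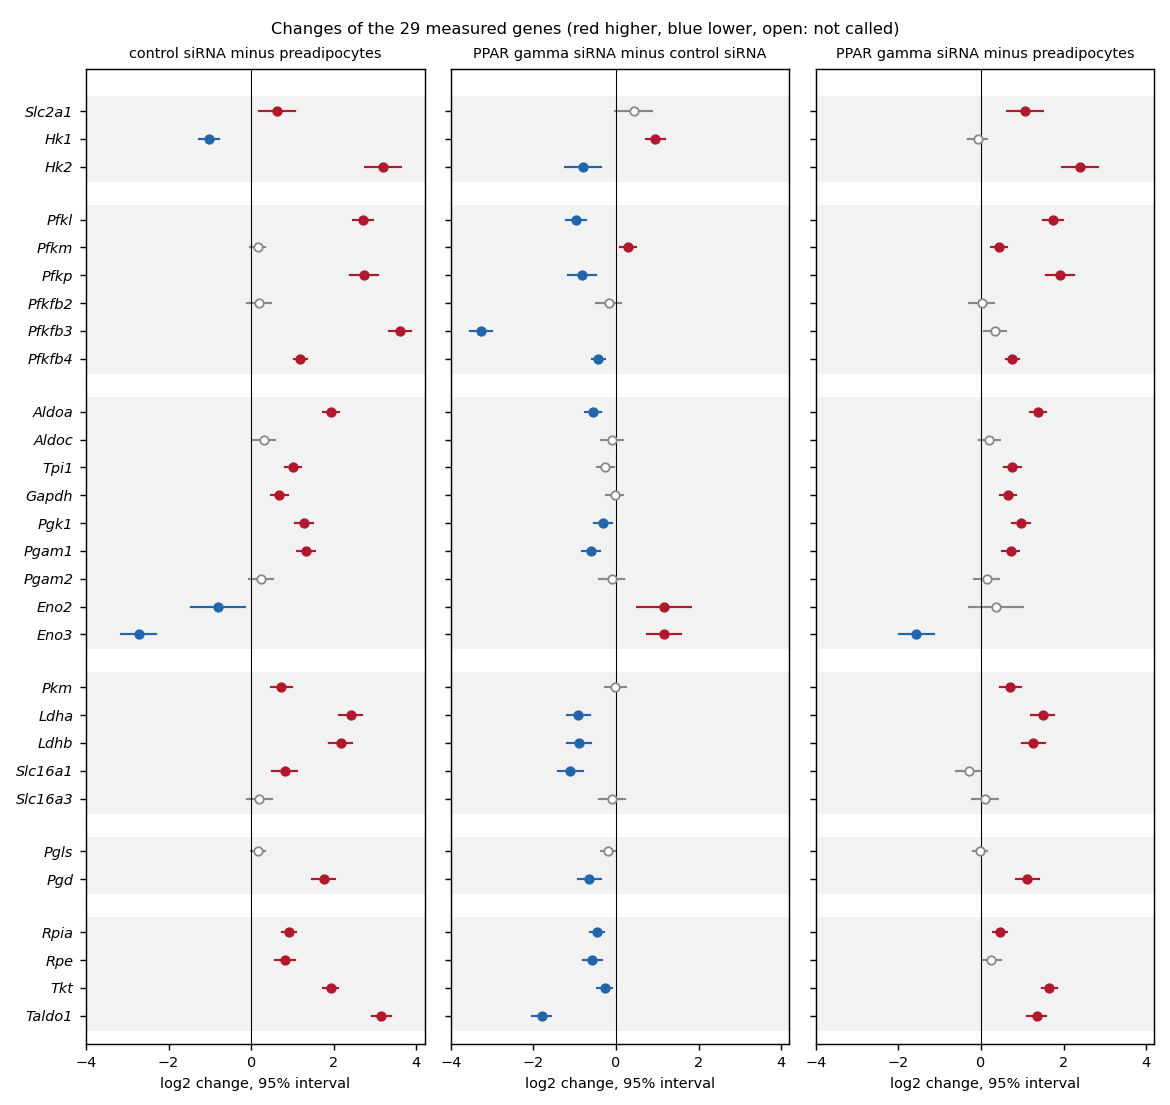
Log2 difference of each of the 29 members in the 3 comparisons, with 95% confidence intervals from limma; filled points were called at an adjusted p under 0.05. Pfkfb3, Hk2 and Taldo1 lie farthest to the right in control siRNA adipocytes minus preadipocytes, and Pfkfb3 farthest to the left in PPAR gamma siRNA minus control siRNA.

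Among the genes of glucose entry and trapping, the 2 hexokinases differed in opposite directions, and the transporter was called higher in both adipocyte groups than in preadipocytes, although its other probe sets did not all bear this out. Slc2a1, the basal glucose transporter GLUT1, was measured at 11.91, 10.96 and 11.12 with PPAR gamma siRNA, 10.93, 10.92 and 10.88 with control siRNA and 10.29, 10.09 and 10.43 in preadipocytes. The first PPAR gamma siRNA array stood well above the other two, which lay only just above the control siRNA arrays, and the 3 groups did not overlap. The control siRNA minus preadipocyte difference was 0.64 ± 0.20 (log2, SE; adjusted p = 0.0218, limma), and the PPAR gamma siRNA minus control siRNA difference of 0.42 ± 0.20 did not pass (adjusted p = 0.156). Without the first PPAR gamma siRNA array the PPAR gamma siRNA minus control siRNA difference was 0.13 (adjusted p = 0.465), and without the second it gave 0.61 and passed (adjusted p = 0.0455). Slc2a1 was higher with PPAR gamma siRNA than in preadipocytes, by 1.06 ± 0.20 (adjusted p = 0.00154). The differentiation call was lost when any of 4 single arrays was left out, replicates 1 or 2 of the preadipocytes or of the control siRNA group (differences of 0.55 to 0.65, adjusted p of 0.0526 to 0.0878), and in 10 of 23 settings in all. These include the Actb difference as a covariate (0.85, adjusted p = 0.0812) and the mean of the gene's probe sets (0.41, adjusted p = 0.0947). The second probe set of Slc2a1 gave 0.53 for control siRNA minus preadipocytes (adjusted p = 0.0765) and 0.81 for PPAR gamma siRNA minus preadipocytes (adjusted p = 0.0167), and the third gave 0.07 (adjusted p = 0.795) and 0.35 (adjusted p = 0.202), with arrays that overlapped.

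Hk2, the insulin-responsive hexokinase that traps glucose as its phosphate and whose window with 2 ACGTG sites is shown above, was measured at 11.36, 10.32 and 10.88 with PPAR gamma siRNA, 11.58, 11.65 and 11.70 with control siRNA and 8.39, 8.52 and 8.45 in preadipocytes. Every control siRNA array lay above every PPAR gamma siRNA array, and both adipocyte groups lay far above preadipocytes. The difference was 3.19 ± 0.20 for control siRNA minus preadipocytes, 9.14-fold (adjusted p = 7.62e-08, limma). It was -0.79 ± 0.20 for PPAR gamma siRNA minus control siRNA (adjusted p = 0.00951), -0.52 without the second PPAR gamma siRNA array, and 2.399 ± 0.20 for PPAR gamma siRNA minus preadipocytes (adjusted p = 2.72e-06).

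Hk1, the hexokinase found in most tissues, showed the reverse order. It was measured at 9.30, 9.39 and 9.46 with PPAR gamma siRNA, 8.56, 8.53 and 8.22 with control siRNA and 9.48, 9.53 and 9.36 in preadipocytes. The control siRNA arrays were the low ones, and the other groups overlapped. Hk1 was lower in the control siRNA adipocytes than in preadipocytes by a log2 difference of -1.02 ± 0.11 (adjusted p = 7.06e-06, limma) and higher with PPAR gamma siRNA than with control siRNA by 0.95 ± 0.11 (adjusted p = 2.79e-05). The difference of PPAR gamma siRNA from preadipocytes was -0.07 with a 95% interval of -0.31 to 0.16. The other probe set of Hk1 gave -1.55 and 1.25 for the first comparisons, both called. On it every PPAR gamma siRNA array lay below every preadipocyte array. That difference was -0.30 with a 95% interval of -0.55 to -0.06 and did not pass (adjusted p = 0.0584, limma).

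The hexose phosphate steps held the member of largest change. Pfkfb3, which makes the bisphosphate that activates phosphofructokinase, was measured at 5.46, 5.38 and 5.47 with PPAR gamma siRNA, 8.87, 8.63 and 8.61 with control siRNA and 5.20, 5.26 and 4.82 in preadipocytes. Only the control siRNA arrays were high, and the PPAR gamma siRNA arrays lay just above those of preadipocytes. All 6 arrays of these other groups were below 6 (log2), the dimness limit used here, so the sizes of the differences are those of signals not shown to be above background. Pfkfb3 was higher in the control siRNA adipocytes than in preadipocytes by 3.61 ± 0.12 (log2; adjusted p = 5e-10, limma). It fell with PPAR gamma siRNA against control siRNA by 3.27 ± 0.12 on the log2 scale (adjusted p = 5.42e-09). The remaining difference of PPAR gamma siRNA from preadipocytes was 0.34, with a 95% interval of 0.08 to 0.61, and did not pass (adjusted p = 0.0524), although it did without preadipocyte replicate 2 (0.43, adjusted p = 0.0396) or control siRNA replicate 1 (0.34, adjusted p = 0.0435). A dimmer probe set of Pfkfb3 gave 1.77 and -1.61 for control siRNA minus preadipocytes and PPAR gamma siRNA minus control siRNA, both called.

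Phosphofructokinase commits sugar to glycolysis, and its 3 isozyme genes did not behave alike. Pfkl, the liver-type subunit, was measured at 10.68, 10.76 and 10.70 with PPAR gamma siRNA, 11.75, 11.84 and 11.45 with control siRNA and 8.95, 9.07 and 8.87 in preadipocytes. Pfkp, the platelet-type subunit, was measured at 10.03, 9.39 and 9.82 with PPAR gamma siRNA, 10.67, 10.69 and 10.35 with control siRNA and 7.86, 7.91 and 7.72 in preadipocytes. For both genes, on these probe sets, the 3 groups were in the same order without overlap: control siRNA highest, PPAR gamma siRNA between, preadipocytes lowest. Control siRNA minus preadipocytes was 2.72 ± 0.11 for Pfkl (adjusted p = 2.06e-09, limma) and 2.74 ± 0.15 for Pfkp (adjusted p = 3.25e-08). PPAR gamma siRNA minus control siRNA was -0.97 ± 0.11 for Pfkl (adjusted p = 3.12e-05) and -0.83 ± 0.15 for Pfkp (adjusted p = 0.0014). Against preadipocytes PPAR gamma siRNA remained higher by 1.75 ± 0.11 for Pfkl and 1.92 ± 0.15 for Pfkp. On another probe set of Pfkp the arrays of the siRNA groups overlapped. Its PPAR gamma siRNA minus control siRNA difference of -1.01 was called (adjusted p = 0.0419, limma).

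Pfkm, the muscle-type subunit, averaged 10.17 ± 0.09 with PPAR gamma siRNA, 9.88 ± 0.05 with control siRNA and 9.73 ± 0.08 in preadipocytes (log2, SD, n = 3 each). Its differentiation difference of 0.16, with a 95% interval of -0.03 to 0.34, did not pass (adjusted p = 0.163, limma), and it was called higher with PPAR gamma siRNA than with control siRNA by 0.28 ± 0.08 (adjusted p = 0.026). That call was lost without control siRNA replicate 2 (0.29) or 3 (0.26), or without PPAR gamma siRNA replicate 1 (0.27) or 3 (0.25). Pfkfb4, a paralog of Pfkfb3, was higher in the control siRNA adipocytes than in preadipocytes by 1.195 ± 0.07 and lower under PPAR gamma siRNA than with control siRNA by a log2 difference of -0.43 ± 0.07 (adjusted p = 7.74e-08 and 0.000792). Pfkfb2, the heart-type paralog, lay at 5.51 to 6.14 on all arrays and was called in none of the comparisons, but 2 of its other probe sets were called lower in the control siRNA adipocytes than in preadipocytes (-0.72 and -0.44). Those 2 lay at 4.93 to 6.20 and 3.29 to 4.47, so all of these signals were near the dimness limit of 6 or below it. The direction of Pfkfb2 is therefore unsettled.

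**Figure D2:**
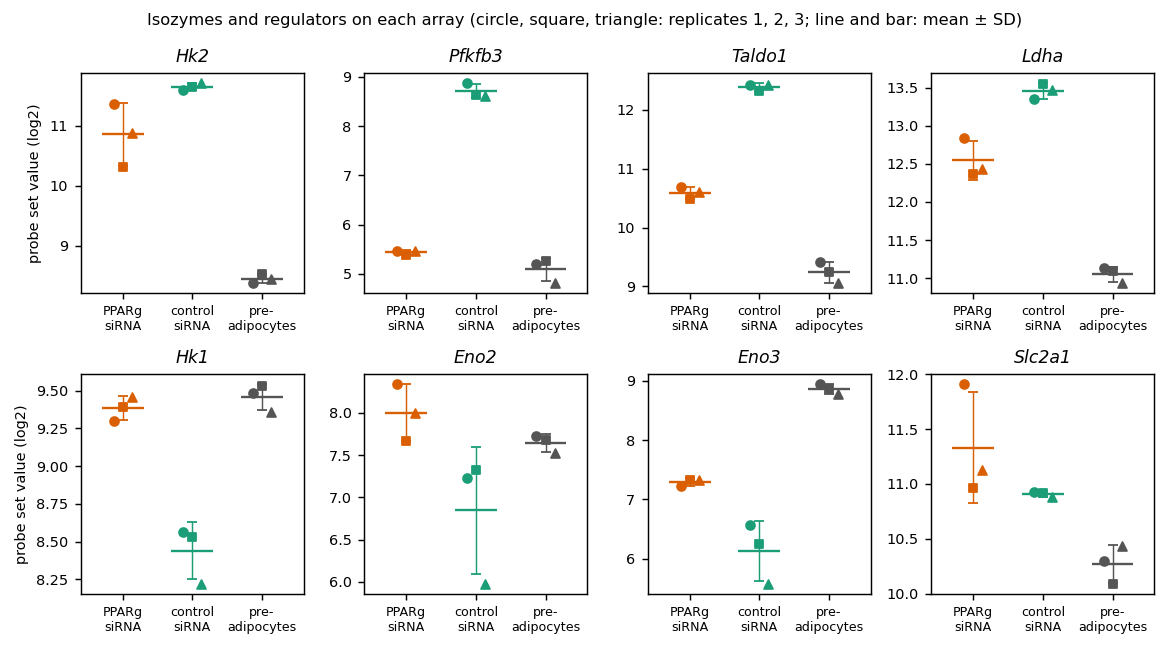
Log2 probe set value of 8 members on each array, with PPAR gamma siRNA, control siRNA and preadipocytes from left to right; points are arrays, horizontal lines are group means and error bars are SD (n = 3). Hk2, Pfkfb3, Taldo1 and Ldha were highest with control siRNA, Hk1, Eno2 and Eno3 were lowest there, and the first PPAR gamma siRNA array of Slc2a1 (circle) stands at 11.91.

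In the trunk of glycolysis, between aldolase and enolase, Aldoa, Tpi1, Gapdh, Pgk1 and Pgam1 lay well above the dimness limit of 6 on every array. Aldoc and Pgam2 lay below it on every array, and Eno2 and Eno3 on control siRNA replicate 3. Aldoa, the main aldolase, averaged 13.14 ± 0.14 with PPAR gamma siRNA, 13.70 ± 0.04 with control siRNA and 11.76 ± 0.04 in preadipocytes (log2, SD, n = 3 each). It was higher in the control siRNA adipocytes than in preadipocytes by 1.94 ± 0.09 (adjusted p = 5.92e-09, limma) and lower under PPAR gamma siRNA than with control siRNA by a log2 difference of -0.55 ± 0.09 (adjusted p = 0.000478). Pgam1, the phosphoglycerate mutase of most tissues, averaged 12.16 ± 0.16, 12.77 ± 0.08 and 11.44 ± 0.06 in the same order of groups. It gave 1.33 ± 0.10 and -0.61 ± 0.10 for the same comparisons, both called. The mutase paralog of muscle, Pgam2, and the brain aldolase, Aldoc, stayed below 5 on every array (4.39 to 4.92 and 3.65 to 4.28), and no change of either passed the test.

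Tpi1, Gapdh and Pgk1 encode triose phosphate isomerase, the NAD-dependent dehydrogenase and the first ATP-producing kinase of the pathway. Their control siRNA minus preadipocyte differences were 1.02 ± 0.09, 0.69 ± 0.09 and 1.28 ± 0.10 (adjusted p = 1.92e-06, 6e-05 and 6.27e-07, limma). With PPAR gamma siRNA against control siRNA, Pgk1 was called lower by a log2 difference of -0.31 ± 0.10 (adjusted p = 0.0399), Tpi1 at -0.26 did not pass (adjusted p = 0.0583) and Gapdh at -0.04 had a 95% interval of -0.24 to 0.16. The Pgk1 call was lost in 14 of 23 alternative settings, among them without any of 7 single arrays: each preadipocyte array, control siRNA replicates 2 and 3, and PPAR gamma siRNA replicates 2 and 3, with differences of -0.33 to -0.25. Tpi1 passed in 5 settings, including without PPAR gamma siRNA replicate 1 (-0.31, adjusted p = 0.0396). Gapdh reached 14.32, close to the highest value on any array, 14.59, and was measured here only by the array's control probe sets.

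The 2 enolase genes measured here, Eno2 and Eno3, were called lower in the control siRNA adipocytes than in preadipocytes. Eno1 was not analysed, so these values do not describe the enolase step as a whole. Eno3, the muscle enolase, was measured at 7.23, 7.33 and 7.33 with PPAR gamma siRNA, 6.57, 6.25 and 5.58 with control siRNA and 8.94, 8.86 and 8.77 in preadipocytes. Every control siRNA array was lowest and every preadipocyte array highest. Eno3 was lower in the control siRNA adipocytes than in preadipocytes by a log2 difference of -2.72 ± 0.19 (adjusted p = 2.44e-07, limma), higher with PPAR gamma siRNA than with control siRNA by 1.161 ± 0.19 (adjusted p = 0.0006), and lower under PPAR gamma siRNA than in preadipocytes by a log2 difference of -1.56 ± 0.19 (adjusted p = 6.71e-05), where it was the only member called lower.

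Eno2, the neuronal enolase, was measured at 8.34, 7.67 and 8.00 with PPAR gamma siRNA, 7.23, 7.33 and 5.98 with control siRNA and 7.73, 7.68 and 7.53 in preadipocytes. The third control siRNA array stood far below the other two. Eno2 was lower in the control siRNA adipocytes than in preadipocytes by a log2 difference of -0.80 ± 0.30 (adjusted p = 0.0463, limma) and higher with PPAR gamma siRNA than with control siRNA by 1.157 ± 0.30 (adjusted p = 0.0112). Without the third control siRNA array these became -0.37 (adjusted p = 0.107) and 0.72 (adjusted p = 0.00822). Eno2 with PPAR gamma siRNA minus preadipocytes was 0.36 and did not pass (adjusted p = 0.416). The differentiation call of Eno2 was lost in 12 of 22 alternative settings, also without any 1 preadipocyte array (-0.86 to -0.76) or without PPAR gamma siRNA replicate 2 or 3 (-0.80 each).

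Pkm, the pyruvate kinase of most tissues, ends glycolysis; the values do not separate its splice forms. Its levels were 12.45, 12.32 and 12.27 with PPAR gamma siRNA, 12.46, 12.52 and 12.12 with control siRNA and 11.76, 11.61 and 11.52 in preadipocytes. The adipocyte groups overlapped, and both lay above preadipocytes. Control siRNA minus preadipocytes was 0.73 ± 0.12 (adjusted p = 0.000253, limma), PPAR gamma siRNA minus control siRNA was -0.02 with a 95% interval of -0.27 to 0.24, and PPAR gamma siRNA minus preadipocytes was 0.71 ± 0.12 (adjusted p = 0.000565).

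Both lactate dehydrogenase subunits moved in parallel. Ldha, which favours the making of lactate and whose window with 3 separate ACGTG sites is shown above, was measured at 12.84, 12.36 and 12.44 with PPAR gamma siRNA, 13.35, 13.55 and 13.47 with control siRNA and 11.13, 11.09 and 10.94 in preadipocytes. Ldhb, the heart-type subunit, was measured at 11.25, 11.61 and 11.47 with PPAR gamma siRNA, 12.45, 12.45 and 12.13 with control siRNA and 10.32, 10.22 and 9.99 in preadipocytes. In each gene the 3 groups were separate, with control siRNA highest and preadipocytes lowest. Control siRNA minus preadipocytes was 2.41 ± 0.12 for Ldha (5.30-fold, adjusted p = 1.7e-08, limma) and 2.17 ± 0.13 for Ldhb (4.49-fold, adjusted p = 5.48e-08). PPAR gamma siRNA minus control siRNA was -0.91 ± 0.12 for Ldha (adjusted p = 0.000146) and -0.90 ± 0.13 for Ldhb (adjusted p = 0.000203).

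Slc16a1, the lactate and pyruvate transporter MCT1, was measured at 9.88, 9.33 and 9.74 with PPAR gamma siRNA, 10.56, 10.81 and 10.91 with control siRNA and 9.95, 10.03 and 9.87 in preadipocytes. The control siRNA arrays stood apart above the other groups, which overlapped. Slc16a1 was higher in the control siRNA adipocytes than in preadipocytes by 0.81 ± 0.14 (adjusted p = 0.0005, limma) and lower under PPAR gamma siRNA than with control siRNA by a log2 difference of -1.11 ± 0.14 (adjusted p = 7.77e-05). PPAR gamma siRNA minus preadipocytes was -0.30 with a 95% interval of -0.60 to 0.01 (adjusted p = 0.142). Its second probe set lay at 3.41 to 4.02 on all arrays and showed 0.10 and -0.14 in the first comparisons, with neither called. Slc16a3, the transporter MCT4 of strongly glycolytic cells, lay at 3.95 to 4.56 on all arrays, below the dimness limit of 6, and no change of it passed the test.

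**Figure D3:**
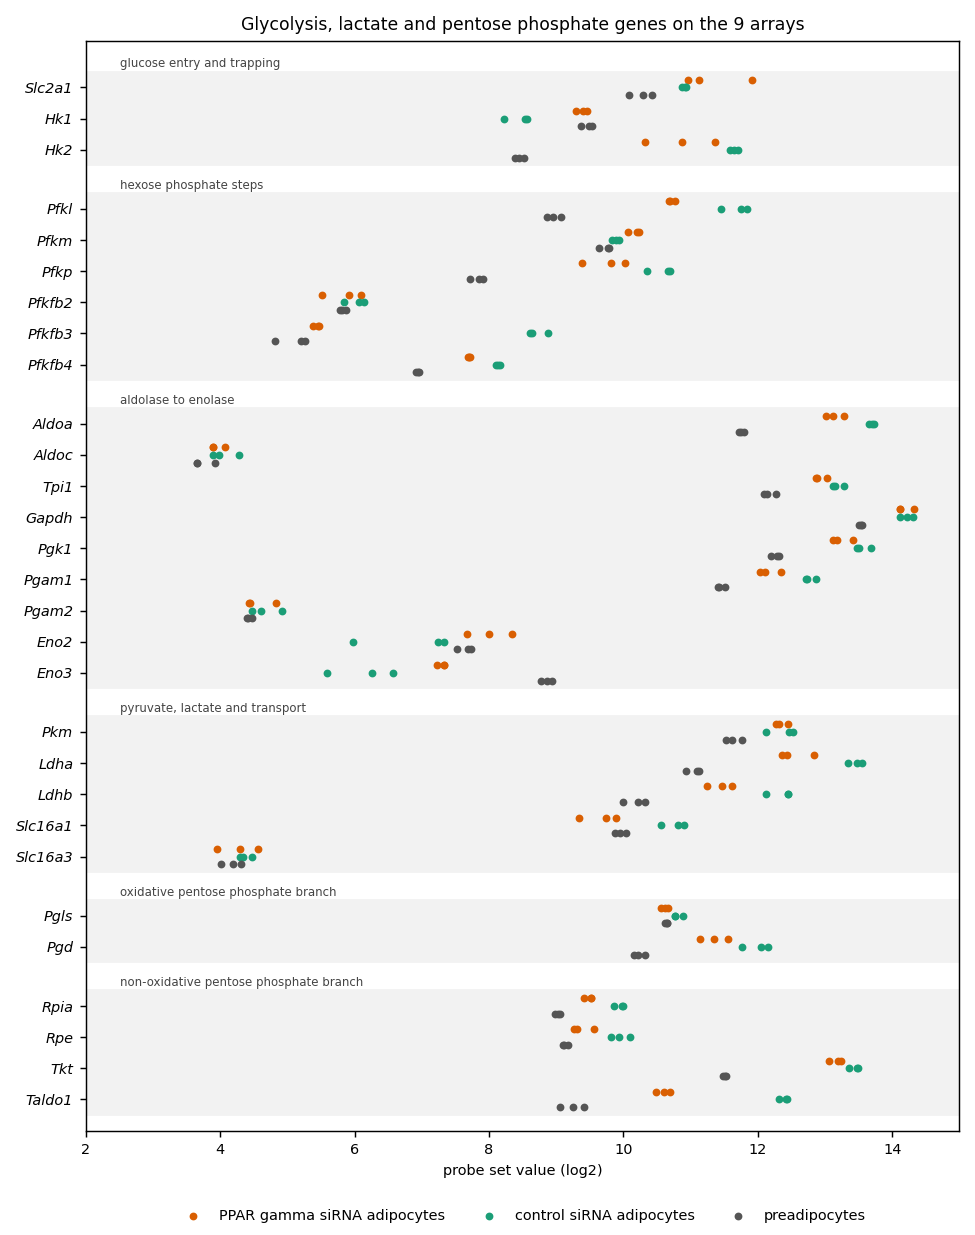
Log2 probe set value (horizontal axis) of the 29 members on each of the 9 arrays, 1 point per array and 1 line of points per group, with members grouped by pathway step. Control siRNA points stand right of the other groups for Pfkfb3, Taldo1, Ldha and Slc16a1 and left of them for Hk1, Eno2 and Eno3, and Aldoc, Pgam2 and Slc16a3 lie below 5 on every array; values of different probe sets do not rank transcript levels.

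In the pentose phosphate pathway, 5 of the 6 measured enzymes were called higher in the control siRNA adipocytes than in preadipocytes, and 5 of 6 were called lower under PPAR gamma siRNA than with control siRNA, with medians of 1.34 and -0.52. Over all genes 27.1% were called higher and 16.1% lower in those comparisons. Against preadipocytes PPAR gamma siRNA had 4 of the 6 called higher, beside 19.6% of all genes, and none lower. Taldo1, the transaldolase that returns sugars to glycolysis, was measured at 10.69, 10.49 and 10.60 with PPAR gamma siRNA, 12.43, 12.32 and 12.43 with control siRNA and 9.41, 9.24 and 9.06 in preadipocytes. The groups were separate, with PPAR gamma siRNA between the others. Control siRNA minus preadipocytes was 3.15 ± 0.10 (8.89-fold, adjusted p = 3.95e-10, limma), PPAR gamma siRNA minus control siRNA was -1.80 ± 0.10 (adjusted p = 1.35e-07) and PPAR gamma siRNA minus preadipocytes was 1.35 ± 0.10 (adjusted p = 1.49e-06).

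Tkt, the transketolase of the same branch, averaged 13.16 ± 0.09 with PPAR gamma siRNA, 13.44 ± 0.07 with control siRNA and 11.51 ± 0.02 in preadipocytes (log2, SD, n = 3 each). It was higher in the control siRNA adipocytes than in preadipocytes by 1.93 ± 0.08 (adjusted p = 3.84e-09, limma), and its smaller decrease with PPAR gamma siRNA against control siRNA, -0.28 ± 0.08 (adjusted p = 0.0275), was lost in 11 of 23 settings. Without control siRNA replicate 1 or 3 or PPAR gamma siRNA replicate 2 it was -0.26, -0.25 and -0.22, and with the probe sets of types x and s left out it was -0.13. Rpia and Rpe, the isomerase and epimerase of ribose and ribulose phosphates, were higher in the control siRNA adipocytes than in preadipocytes by 0.92 ± 0.08 and 0.82 ± 0.11, and lower under PPAR gamma siRNA than with control siRNA by log2 differences of -0.46 ± 0.08 and -0.57 ± 0.11, all called.

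In the NADPH-producing branch, Pgd, phosphogluconate dehydrogenase, averaged 11.35 ± 0.21 with PPAR gamma siRNA, 11.99 ± 0.20 with control siRNA and 10.23 ± 0.08 in preadipocytes. Its differences were 1.76 ± 0.13 for control siRNA minus preadipocytes and -0.64 ± 0.13 for PPAR gamma siRNA minus control siRNA (adjusted p = 2.87e-07 and 0.00212, limma). Pgls, the lactonase before it, was called in neither: 0.17 (95% interval -0.0036 to 0.34) and -0.20 (95% interval -0.37 to -0.02).

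The first PPAR gamma siRNA array was the highest of its group in 21 of 29 members (72.4%), beside 37.0% of all genes. Without it the member counts were 3 higher and 17 lower for PPAR gamma siRNA against control siRNA, in place of 4 and 16, and stayed at 18 and 1 against preadipocytes. The same array was highest in 10 of 10 hypoxia response genes outside glycolysis. Ankrd37, one of them, was at 7.98, 6.22 and 6.82 on the PPAR gamma siRNA arrays, 7.14, 7.11 and 7.07 on the control siRNA arrays and 4.81, 4.86 and 4.96 on the preadipocyte arrays. The part of this array's state in the members' levels was not tested.

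**Figure D4:**
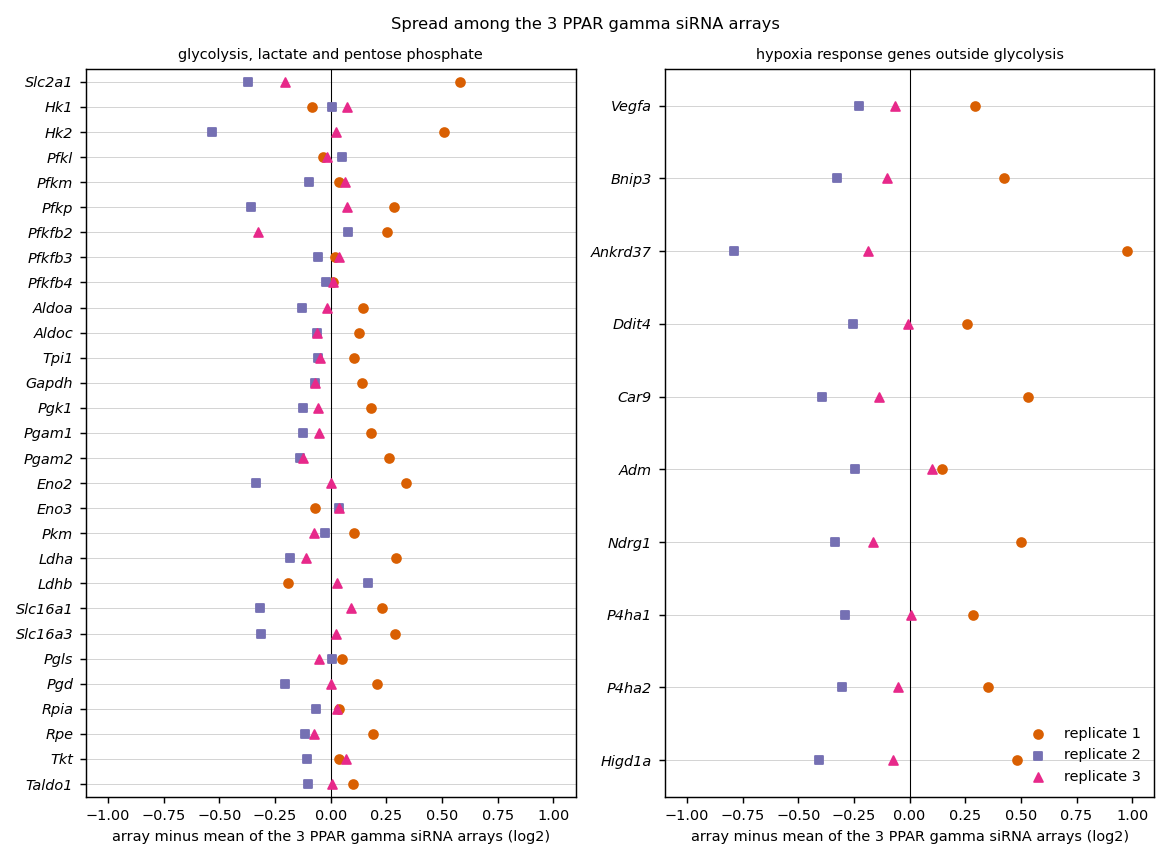
Log2 deviation of each PPAR gamma siRNA array from the mean of the 3 such arrays, for the 29 members (left) and 10 hypoxia response genes outside glycolysis (right), with 1 symbol per replicate. Replicate 1 is the rightmost symbol in 21 of 29 members and in 10 of 10 hypoxia response genes.

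Other glucose genes gave context, from lists of related genes. Their counts stand beside shares over all genes of 27.1% called higher and 24.7% lower in differentiation and 19.9% higher and 16.1% lower for PPAR gamma siRNA against control siRNA. Of 17 other isozymes and hexose transporters, 7 were called higher and 2 lower in the control siRNA adipocytes than in preadipocytes, and 2 higher and 2 lower under PPAR gamma siRNA than with control siRNA (medians 0.26 and -0.09). The 2 and 2 of 17, 11.8% each, lie below the shares over all genes. Slc2a4, the insulin-sensitive transporter GLUT4, differed by 4.92 ± 0.23 and -1.62 ± 0.23. Tigar, a phosphatase that opposes Pfkfb3, differed by 1.91 ± 0.15 and -1.73 ± 0.15, and Slc2a10 by -2.19 ± 0.14 and 0.81 ± 0.14. Tigar in PPAR gamma siRNA adipocytes and preadipocytes, and Slc2a10 in both adipocyte groups, lay below 6. Of the genes that partner lactate transporters, Bsg, the chaperone of MCT1 and MCT4, was higher in the control siRNA adipocytes than in preadipocytes by 1.41 ± 0.12, Emb, below 6 in both adipocyte groups, was lower by a log2 difference of -1.74 ± 0.12, and neither change with PPAR gamma siRNA against control siRNA passed.

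The fate of pyruvate in mitochondria depends on its carrier and on pyruvate dehydrogenase and its switches. Of 13 such genes, 11 were called higher and 1 lower in the control siRNA adipocytes than in preadipocytes, and 2 higher and 11 lower under PPAR gamma siRNA than with control siRNA (medians 2.25 and -1.70). Pcx, pyruvate carboxylase, differed by 4.29 ± 0.10 and -1.54 ± 0.10, Pdhb, a subunit of pyruvate dehydrogenase, by 2.69 ± 0.09 and -2.47 ± 0.09, Pdk4, the kinase that switches pyruvate dehydrogenase off, by 1.55 ± 0.14 and -2.53 ± 0.14, and Pdp1, the phosphatase that switches it on, by -2.07 ± 0.12 and 1.12 ± 0.12. Of 8 other NADPH sources, 4 were called higher and 2 lower in the control siRNA adipocytes than in preadipocytes and 1 higher and 4 lower under PPAR gamma siRNA than with control siRNA, with malic enzyme Me1 at 2.599 ± 0.12 and -1.47 ± 0.12. Of 9 glycogen genes, 7 were called higher and 1 lower, and then 1 higher and 6 lower in the same comparisons, with Pygl, liver glycogen phosphorylase, at 3.996 ± 0.08 and -3.81 ± 0.08 and Gbe1, the branching enzyme, at 4.52 ± 0.21 and -1.30 ± 0.21. Pygl lay below 6 in PPAR gamma siRNA adipocytes and preadipocytes, and Gbe1 in preadipocytes.

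Of 10 hypoxia response genes outside glycolysis, 9 were called higher and 1 lower in the control siRNA adipocytes than in preadipocytes (median 1.98). Under PPAR gamma siRNA 2 were called higher and 3 lower than with control siRNA (median 0.07). All 10 were called higher with PPAR gamma siRNA than in preadipocytes, beside 19.6% of all genes (median 1.88, beside 0.07 for all genes). Without the first PPAR gamma siRNA array PPAR gamma siRNA against control siRNA had 2 higher and 5 lower, with a median of -0.26. Bnip3, a mitochondrial death and mitophagy protein, differed by 4.36 ± 0.15 and -1.14 ± 0.15 in the first comparisons, and Adm, the peptide adrenomedullin, by -0.57 ± 0.12 and 1.87 ± 0.12. Of 9 hypoxia-inducible factors and their regulators, 4 were called higher and 3 lower in the control siRNA adipocytes than in preadipocytes and 2 higher and 3 lower under PPAR gamma siRNA than with control siRNA. These shares, 44.4% and 33.3% in differentiation and 22.2% and 33.3% between the siRNAs, stand beside 27.1% and 24.7%, and 19.9% and 16.1%, of all genes. Egln3, a prolyl hydroxylase, was at 6.03 ± 0.17 and -1.24 ± 0.17, and Hif1a at -1.04 ± 0.08 and 0.48 ± 0.08. Of 8 carbohydrate and growth transcription factors, 6 were called higher and none lower in differentiation and 1 higher and 4 lower under PPAR gamma siRNA than with control siRNA, with Mlxipl, the carbohydrate-responsive factor ChREBP, at 2.30 ± 0.17 and -1.52 ± 0.17 and Srebf1 at 2.25 ± 0.09 and 0.59 ± 0.09. Mlxipl lay below 6 in PPAR gamma siRNA adipocytes and preadipocytes.

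**Figure D5:**
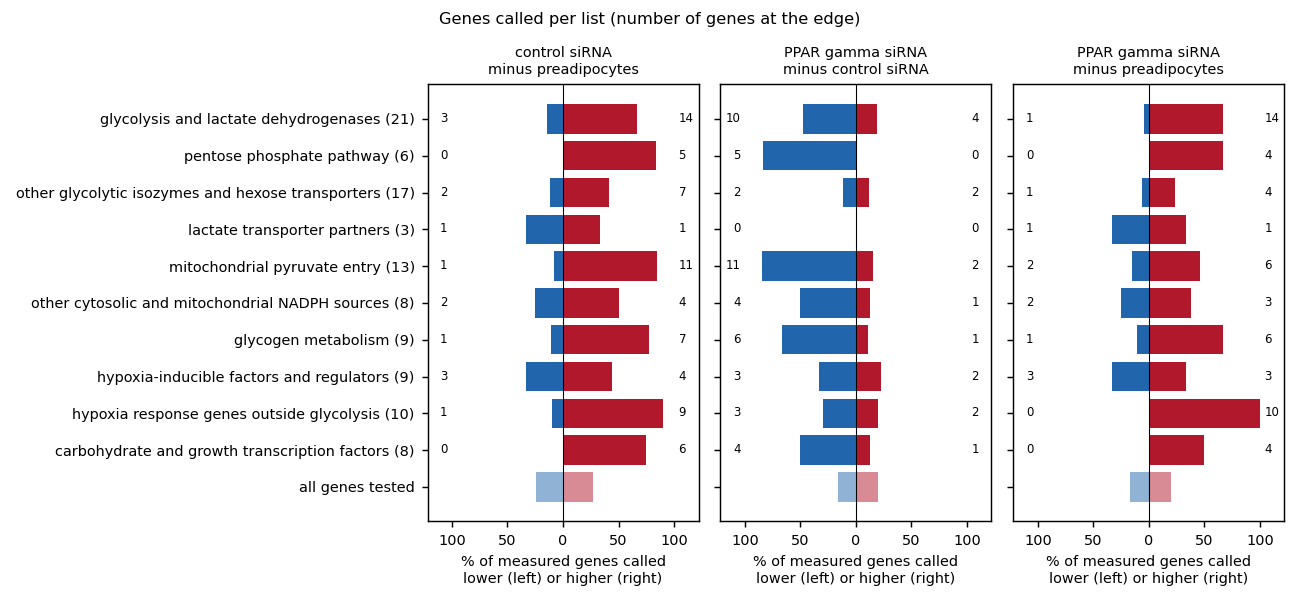
Share of the measured genes of each list called lower (left) or higher (right) in each comparison, with counts at the edges and the share of all genes tested in the bottom row. In PPAR gamma siRNA minus control siRNA the pentose phosphate pathway had 5 of 6 genes on the lower side and mitochondrial pyruvate entry 11 of 13, beside 16.1% of all genes.

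Of the markers of other cell types, Ptprc and Itgam, which define leukocytes, stayed between 3.12 and 3.55 on all arrays, and the summed level of the 6 macrophage markers was 8.93 to 9.24 with PPAR gamma siRNA, 7.95 to 7.98 with control siRNA and 7.65 to 7.72 in preadipocytes (log2). Within that list Cd14 and Cd68 were called higher with PPAR gamma siRNA than with control siRNA (1.78 ± 0.10 and 1.197 ± 0.22), and their part in the members' changes was not tested. Of the 5 endothelial and the 5 muscle markers none was called between the siRNAs, and all of these stayed below 6 on every array.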

How the data were processed

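Members and gene lists were chosen with earlier results of these data known. The deposited values are log2 probe set summaries made by the authors; the scale was read from their range, 2.41 to 14.59. The submitters' processing notes name MAS5, RMA and affy 1.16.0 without role or order, and no source used here gives the background correction. No further scaling was applied. Of 45101 probe sets, 64 are controls; 13 of these carry 1 mouse gene, which is how Gapdh is measured here, and were kept, so 45050 were tested. The platform annotation lists 35890 probe sets, 932 of them with several genes, which named no member. A gene was represented by the single-gene probe set whose mean over the 9 arrays was highest.

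One linear model of the 9 arrays was fitted with limma 3.58.1 in R 4.3.3, with 1 mean for each group and variances moderated by eBayes. Differentiation is control siRNA minus preadipocytes; the other comparisons are PPAR gamma siRNA minus control siRNA and PPAR gamma siRNA minus preadipocytes. Tests were two-sided, with Benjamini-Hochberg adjustment over all tested probe sets, and genes at an adjusted p under 0.05 were called. The fit was tested on simulated data. A dim member lay below 6 (log2) on all arrays. The number of arrays, 3 a group, limits the precision. Per-array values are given for the 3 members of largest called rise and fall in each comparison and for Slc2a1, Hk2, Ldha, Ldhb and Pkm; in other lists, up to 2 called genes per direction are named. Alternatives were renewed quantile normalisation, median centring, leaving out dim probe sets, fitting only the 2 groups at issue, robust variances with an intensity trend, averaging a gene's probe sets, leaving out types x and s, the second probe set, a replicate block, a test against 1.2-fold, a 2-fold minimum, the Actb difference as a covariate and each array left out. Added after the values were seen were omission of the 2 adipocyte arrays of highest Actb difference and of the control probe sets. Upstream windows were taken from RefSeq (GRCm38.p6).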

Additional observations from a re-analysis of the deposited data

How the results depend on the processing

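No call of a member turned direction under any of the alternatives run, in any comparison. Calls held in every alternative for 16 of 23 members in differentiation, 4 of 20 for PPAR gamma siRNA against control siRNA and 11 of 19 for PPAR gamma siRNA against preadipocytes. The 2-fold minimum is among these alternatives and by its rule removes every call of a smaller change. Between the siRNAs it alone removed the calls of Hk1, Pfkl, Pfkp, Aldoa, Pgam1, Ldha, Ldhb, Pgd and Rpe. It alone removed those of Pfkfb4, Tpi1, Gapdh, Pgk1, Pgam1 and Pkm against preadipocytes, and of Gapdh, Pkm, Rpia and Rpe in differentiation. With 1 array left out in turn, the member calls numbered 21 to 23 in differentiation (19 to 21 higher, 2 to 3 lower), 17 to 20 between the siRNAs (3 to 5 higher, 14 to 17 lower) and 19 to 20 for PPAR gamma siRNA against preadipocytes (18 to 19 higher, 1 to 1 lower). The second probe set of a gene, which only 16 of the 29 members have, gave 13 calls in differentiation (11 higher), 8 between the siRNAs (1 higher, 7 lower) and 12 against preadipocytes (11 higher). A 2-fold minimum left 5 calls between the siRNAs (2 higher, 3 lower) and 11 against preadipocytes (10 higher). With a gene's probe sets averaged, 2 members were called lower against preadipocytes in place of 1.

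With the replicate number as a block the calls were 23 in differentiation, 19 between the siRNAs, where the call of Pgk1 was lost, and 19 against preadipocytes. Same-numbered arrays did not deviate together (correlations of 0.10, 0.01 and 0.04 in differentiation and -0.19, 0.17 and -0.11 between the siRNAs), so the numbers were not taken as pairs.

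Changes that had not passed the test turned sign as follows; the cause was not tested. Pfkfb2 in differentiation was -0.24 with the mean of its probe sets and -0.72 with the second; between the siRNAs it was 0.072 with the second; against preadipocytes it was -0.43 with the mean, -0.65 with the second, -0.0016 without preadipocyte replicate 2, and -0.11 to 0.18 without a PPAR gamma siRNA replicate. Between the siRNAs, Aldoc ranged from -0.18 to 0.013 without a control siRNA replicate and was 0.044 without the 2 arrays of highest Actb difference, Gapdh was 0.012 without control siRNA replicate 2 and 5.84e-05 without PPAR gamma siRNA replicate 2 or 3, Pgam2 was 0.021 without control siRNA replicate 2, and Slc16a3 ranged from -0.25 to 0.053 without a PPAR gamma siRNA replicate. Pkm was 0.12 after renewed quantile normalisation, -0.14 to 0.057 without a control siRNA replicate, 0.02 without PPAR gamma siRNA replicate 3 and 0.065 without the 2 arrays of highest Actb difference. Against preadipocytes, Slc16a3 ranged from -0.051 to 0.25 without a PPAR gamma siRNA replicate. Aldoc, Pgam2 and Slc16a3 were dim on all arrays, so changes in them could not be measured well.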

Other observations

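Genes of lists not described above in full also differed. Glycogenin, Gyg, which primes glycogen, was the 1 glycogen gene called higher with PPAR gamma siRNA than with control siRNA, by 0.83 ± 0.09, and stood higher in the control siRNA adipocytes than in preadipocytes by 1.08 ± 0.09 (adjusted p = 2.49e-05 and 1.17e-06, limma). Nnt, the mitochondrial transhydrogenase that makes NADPH, was lower in the control siRNA adipocytes than in preadipocytes by a log2 difference of -1.56 ± 0.11 and higher with PPAR gamma siRNA than with control siRNA by 1.13 ± 0.11. Ddit4, a hypoxia-induced inhibitor of mTOR signalling, was higher in both steps, by 0.91 ± 0.13 in control siRNA adipocytes against preadipocytes and by 0.63 ± 0.13 with PPAR gamma siRNA against control siRNA. Myc, a transcription factor that binds the E-box, was higher in the control siRNA adipocytes than in preadipocytes by 0.92 ± 0.16 and lower with PPAR gamma siRNA than with control siRNA by a log2 difference of -1.22 ± 0.16.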
